A study of Mus musculus with 12 samples.

Results

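The cytosolic heat shock response genes described here were 10 genes chosen by symbol, Hsf1, Hspa1a, Hspa1b, Hspa8, Hsph1, Hsp90aa1, Hsp90ab1, Dnajb1, Hspb1 and Bag3, among the 34513 mouse genes of an RNA-seq count table. All 10 were in the table and all 10 passed the filter on low counts, which kept 18338 genes. The table covered 3 mouse lines grown in culture, the non-tumorigenic melanocyte line Melan-A and the melanoma lines B16F0 and B16F10, the latter the more metastatic. Each line was sequenced untreated and after SX-682, an antagonist of the chemokine receptors CXCR1 and CXCR2, giving 6 groups of 2 libraries. The labels give no vehicle for the controls, and no dose, exposure time, genotype or separate culture of origin for any library, so p-values measure only the spread between these libraries, which may be technical. With 2 libraries against 2, an exact permutation test cannot give a two-sided p below 0.333, and the p-values here therefore come from edgeR's quasi-likelihood test fitted across all genes tested.

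The cytosolic heat shock response is the program by which cells answer misfolded protein. Its transcription factor, heat shock factor 1, is held inactive in unstressed cells in part by HSP70 and HSP90 chaperones, and on activation it binds heat shock elements, inverted repeats of the unit GAA, in front of chaperone genes. The products fall into a strongly inducible class, such as Hspa1a and Hspa1b, a class that is abundant at all times, such as Hspa8 and Hsp90ab1, and co-chaperones that drive the ATP cycle of HSP70 and HSP90.

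Library totals were between 48876982 and 85322092 counts, and 3 counts in a library, used as the floor, corresponded to 0.0330 to 0.0623 CPM, the count set to a common library size with TMM scaling. Markers of the melanocyte lineage were checked first. All 8 were over the floor in every group, but their summed level was 1351 to 1382 CPM in untreated Melan-A, against 19270 to 19370 CPM in untreated B16F0 and 25120 to 25150 CPM in untreated B16F10. With SX-682 it was 1353 to 1361 CPM in Melan-A, 16210 to 16420 CPM in B16F0 and 15250 to 15500 CPM in B16F10. Tyr, the first enzyme of melanin synthesis, was at 0.253 to 0.892 CPM in the 4 libraries labelled Melan-A, and the transcription factor Sox10 was at 655 to 753 CPM there. Untreated Sox10 went against the sum, at 654.9 and 685.3 CPM in Melan-A, 444.9 and 460.3 in B16F0 and 582.5 and 589.0 in B16F10. The other lineage markers were each lower in untreated Melan-A than in both untreated B16 lines. Of 6 fibroblast markers, all 6 were over the floor in the Melan-A libraries. Their sum was 114 to 115 CPM in untreated Melan-A, 16.1 to 16.7 CPM in untreated B16F0 and 8.43 to 9.72 CPM in untreated B16F10. Dcn and Lum were at 0 in untreated B16F10. Col1a1 and Col3a1 held most of the Melan-A sum, at 45.7 and 47.07 CPM and at 54.81 and 52.98 CPM in the untreated libraries. Untreated Col1a2 was lower in Melan-A, at 0.6138 and 0.9136 CPM, than in B16F0 (2.363 and 2.35) and B16F10 (4.498 and 5.789). Untreated Pdgfra was at 4.378 and 3.621 CPM in Melan-A, 8.383 and 7.837 in B16F0 and 1.24 and 1.424 in B16F10. Keratinocyte and leukocyte markers summed to at most 2.87 and 7.19 CPM in any library. The part of these marker differences in the results below was not tested. The changes within B16F0 and within B16F10 do not use the Melan-A levels, and a fit without the Melan-A libraries called 8 and 6 members there, as did the fit of all libraries.

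Promoter windows of RefSeq (build GRCm38.p6) were available for 6 of the 10 genes, and windows are shown for Hspa1b, Hspb1 and Dnajb1. Each window holds the 150 bases before the RefSeq start site, 5′ to 3′ on the gene's own strand, with every match to the core heat shock element, GAANNTTC or TTCNNGAA, in capitals. Both forms read the same on either strand, and they can overlap each other. The Hspa1b window is chr17:34959239-34959388 on the minus strand, the Hspb1 window chr5:135887769-135887918 on the plus strand, and the Dnajb1 window chr8:83608025-83608174 on the plus strand.
Hspa1b: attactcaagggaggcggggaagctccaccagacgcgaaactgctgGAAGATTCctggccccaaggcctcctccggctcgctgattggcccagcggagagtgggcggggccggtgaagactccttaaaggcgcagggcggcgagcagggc
Hspb1: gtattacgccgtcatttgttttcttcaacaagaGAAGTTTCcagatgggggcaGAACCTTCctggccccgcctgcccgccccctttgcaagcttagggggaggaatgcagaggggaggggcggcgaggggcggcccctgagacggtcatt
Dnajb1: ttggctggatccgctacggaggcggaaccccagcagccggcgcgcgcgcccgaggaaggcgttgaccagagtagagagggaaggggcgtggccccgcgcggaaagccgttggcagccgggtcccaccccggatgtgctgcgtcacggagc

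With the last base before the start site counted as -1, the Hspa1b match began at -104, and the Hspb1 matches began at -117 and -97. The matching Hspa1a window differed from that of Hspa1b at 1 of the 150 bases and held the element at the same place, -104. In the whole windows of 300 bases, which reach past the start site, the first Hsph1 window held matches from -33 and from 36 bases after the start, the latter extending to the longer form TTCNNGAANNTTC, and Bag3 held a match from 42 bases after the start. Neither Dnajb1 window held a match. The RefSeq starts of Dnajb1, Hsph1 and Bag3, unlike those of Hspa1a, Hspa1b and Hspb1, do not coincide with a transcript start in GENCODE M21. The positions given for Hsph1 and Bag3 therefore hold for the RefSeq starts only. The printed Dnajb1 window ends before the annotated gene, chr8:83608193-83612653, and the second, chr8:83608398-83608547, lies within it. Of all 32851 mouse windows, 15.1% held a core element and 0.603% the longer form on either strand, so a core match in a single window is common. Hsf1, Hspa8, Hsp90aa1 and Hsp90ab1 had no entry. Whether a match goes with the change of a gene with SX-682 was not tested.

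With SX-682, the inducible HSP70 gene Hspa1b and the small heat shock protein gene Hspb1 rose in all 3 lines, Hspb1 in Melan-A on 11 counts against 2, while Hspa8, Hsph1 and Hsp90aa1 fell in all 3. The members thus moved in opposite directions within the same libraries. At an adjusted p under 0.05 (Benjamini-Hochberg over all genes tested), 5 members rose and 3 fell in Melan-A, 4 rose and 4 fell in B16F0, and 2 rose and 4 fell in B16F10. Among all genes tested, 23.4% rose and 24.7% fell in Melan-A, 25.1% rose and 25.0% fell in B16F0, and 25.5% rose and 25.3% fell in B16F10. The shares were larger in a fit of the 12326 genes with at least 10 counts in every library, which left out Hspa1a and Hspb1. There 4112 rose and 4040 fell in Melan-A, 4213 and 4197 in B16F0, and 4276 and 4462 in B16F10. With a log2 fold change of at least 0.5 in size as well, 3 members passed in Melan-A, where 16.3% of all genes did, 5 in B16F0, against 19.4%, and 4 in B16F10, against 21.5%. Raised in all 3 lines were 2 of the 10 members, against 11.3% of all genes, and lowered in all 3 were 3 of 10, against 11.7%. The median log2 fold change of the members was 0.08 in Melan-A, and those in B16F0 and B16F10 were -0.25 and -0.00, beside a median of 0.00 over all genes tested in each line. In bulk RNA, fewer cells of a kind and less RNA per cell cannot be told apart.

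**Figure D1:**
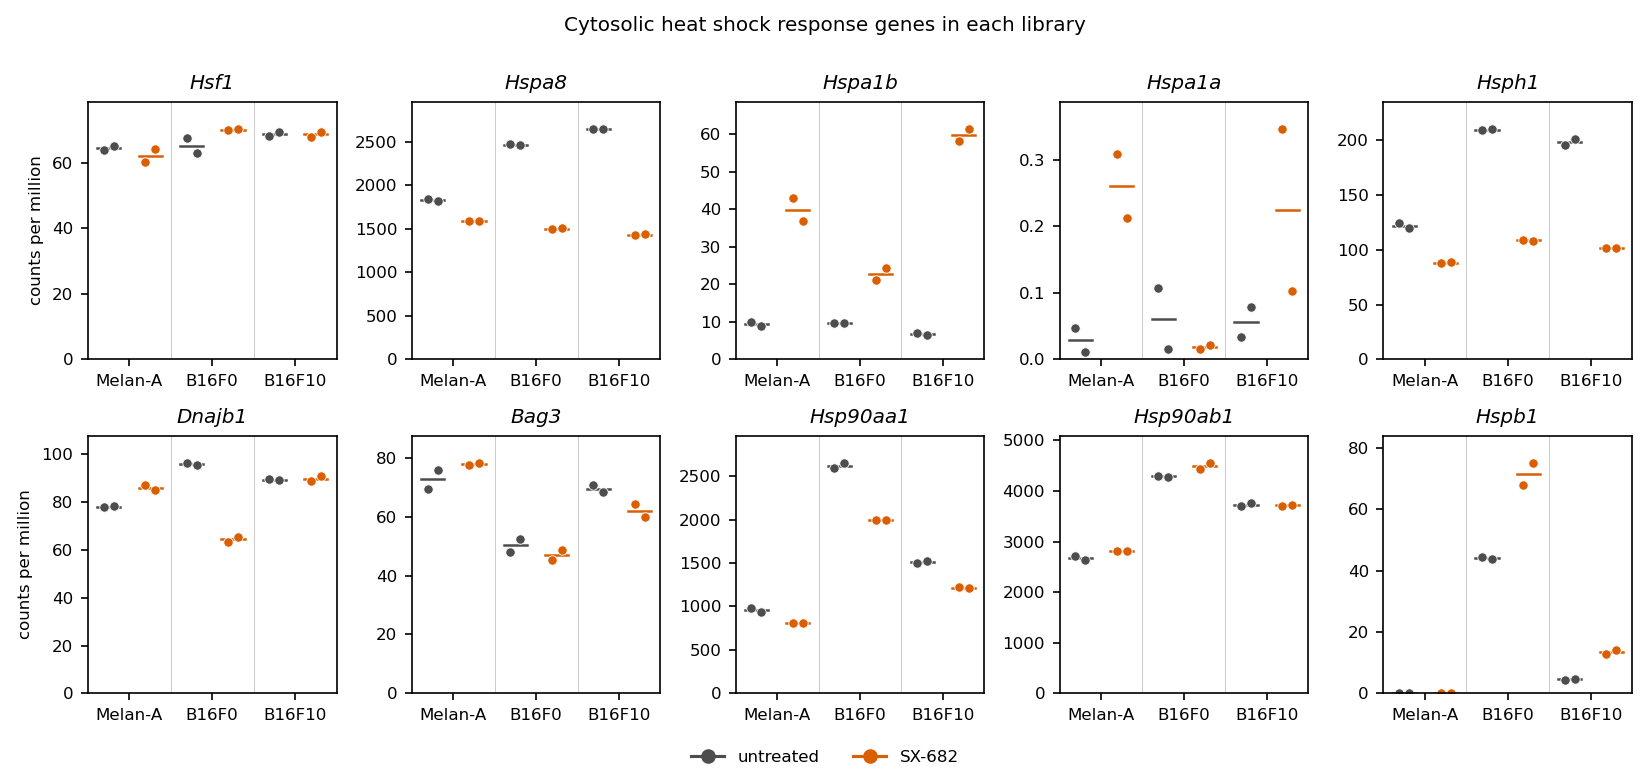
CPM (y axes from 0, a scale for each gene) of the 10 genes in each of the 12 libraries (points) with the mean of the 2 libraries of a group (line), untreated in grey and SX-682 in orange. Hspa1b is higher and Hspa8, Hsph1 and Hsp90aa1 are lower in both SX-682 libraries of every line, and Hspb1 is near 0 in Melan-A.

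**Figure D2:**
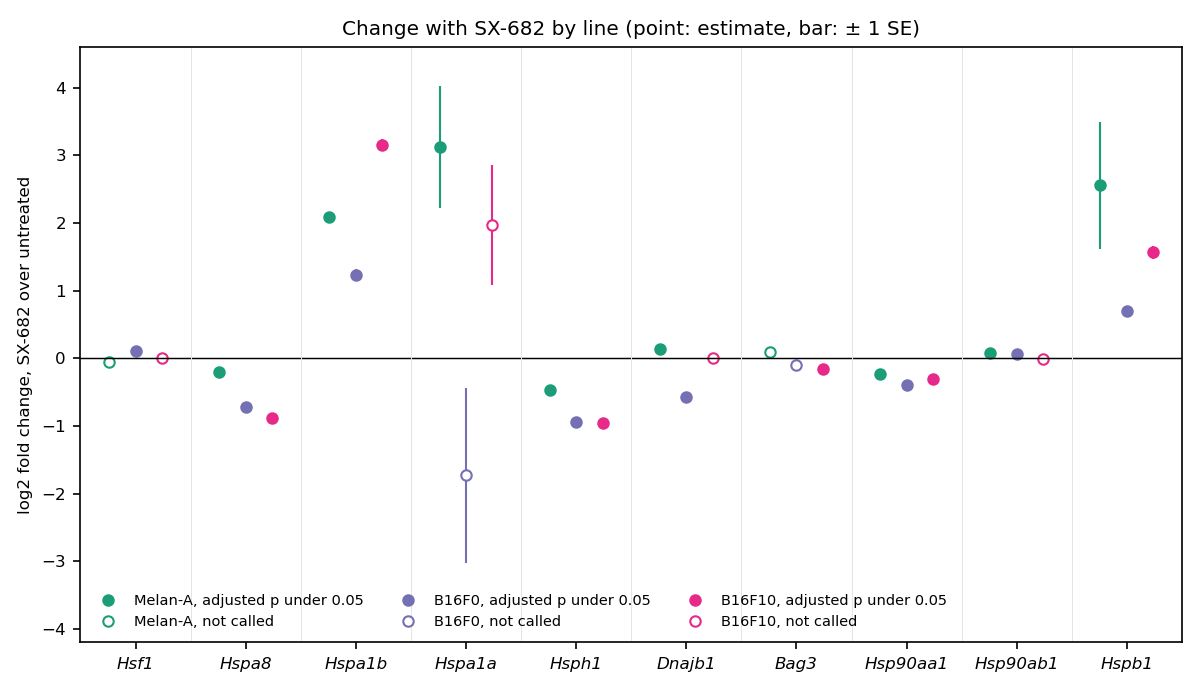
Log2 fold change of SX-682 over untreated (y axis) for the 10 genes in 3 lines, as the estimate with a bar of ± 1 SE, filled where the adjusted p of edgeR's quasi-likelihood test was under 0.05. Hspa1b and Hspb1 lie above 0 and Hspa8, Hsph1 and Hsp90aa1 below 0 in all 3 lines, and the wide bars of Hspa1a and of Hspb1 in Melan-A rest on 38 counts or fewer in a group.

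Hsf1 (ENSMUSG00000022556, chr15:76477422-76501913, mm10), the master regulator of the response, was nearly level. Its libraries held 64.1 and 65.3 CPM in untreated Melan-A and 60.4 and 64.2 CPM with SX-682, 67.6 and 63.1 CPM in untreated B16F0 and 70.0 and 70.4 CPM with SX-682, and 68.4 and 69.4 CPM in untreated B16F10 and 67.9 and 69.6 CPM with SX-682. The groups overlapped in Melan-A and B16F10, and in B16F0 both SX-682 libraries lay above both controls. The log2 fold change was 0.10 ± 0.039 (SE) in B16F0 (adjusted p = 0.03), a call that was lost without B16F0 control replicate 2 (adjusted p = 0.41), without either SX-682 replicate (0.077 and 0.085), with library totals alone as scaling (0.064) and with no filter (0.058). It was -0.05 ± 0.038 in Melan-A and -0.00 ± 0.039 in B16F10, neither of which passed. mRNA level does not report on heat shock factor 1 activity, which is set largely after translation.

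Hspa1b (ENSMUSG00000090877, chr17:34956436-34959238) encodes the heat-inducible cytosolic HSP70 and had the largest called change of the 10 members in both B16 lines. Melan-A held 10.04 and 8.77 CPM untreated and 42.9 and 37.0 CPM with SX-682. B16F0 held 9.65 and 9.55 CPM untreated, rising to 21.1 and 24.3 CPM. B16F10 started lowest, at 6.88 and 6.54 CPM, and reached the highest level, 58.2 and 61.3 CPM. No treated library overlapped any control library, whatever the line. The rise was 4.24-fold in Melan-A (log2 2.09 ± 0.075 SE, adjusted p = 9.9e-20), 2.35-fold in B16F0 (1.23 ± 0.082, 1.3e-13) and 8.91-fold in B16F10 (3.15 ± 0.082, 2e-23), by edgeR's quasi-likelihood test.

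Hspa1a (ENSMUSG00000091971, chr17:34969190-34972156), the neighbouring copy that encodes the same chaperone, was counted at 1 to 22 reads per library. The controls had 4 and 1 counts in Melan-A, 8 and 1 in B16F0, and 2 and 5 in B16F10. With SX-682 there were 22 and 16 counts in Melan-A, 1 and 1 in B16F0, and 21 and 6 in B16F10. Per scaled library, the ratio was 9.20 in Melan-A (95% exact interval 3.62 to 29.9, counting error only), 0.277 in B16F0 (0.0291 to 1.34) and 4.03 in B16F10 (1.71 to 10.9). Only the Melan-A change passed across all genes (adjusted p = 0.0046), and not without control replicate 2 (0.082) or SX-682 replicate 1 (0.062). In B16F10 the adjusted p was 0.065, and 0.036 without SX-682 replicate 2. Of the 50-base stretches of Hspa1b transcripts, 62.3% also occur in Hspa1a, and 58.8% of those of Hspa1a occur in Hspa1b, so reads of the pair can be divided or dropped by the counting, whose handling of such reads is not given in the sources used here. The values of both genes are uncertain for that reason. Hspa1a also shares 19.0% of its exonic bases with Gm20481 on the opposite strand. With the counts of the pair added and fitted as 1 gene, no call for Hspa1b changed. The Hspa1a counts came to only 0.454% of those on Hspa1b, so adding them could hardly change a call. The added counts also do not bring back reads that the counting dropped.

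Hspa8 (ENSMUSG00000015656, chr9:40800984-40810087) encodes HSC70, the HSP70 that is made without stress and serves folding, clathrin uncoating and chaperone-mediated autophagy. It was at 1841 and 1815 CPM in untreated Melan-A and at 1593 CPM in both SX-682 libraries. In B16F0 it went from 2473 and 2457 CPM to 1495 and 1503 CPM. In B16F10 it went from 2642 and 2641 CPM to 1424 and 1435 CPM. Both treated libraries were below both controls in every line, and the order of the lines turned around, with B16F10 the highest line untreated and the lowest with SX-682 by its group mean. The fall was 1.15-fold in Melan-A (log2 -0.20 ± 0.017 SE, adjusted p = 2.1e-11), 1.65-fold in B16F0 (-0.72 ± 0.017, 2e-24) and 1.85-fold in B16F10 (-0.89 ± 0.017, 9.1e-27). Of its 50-base stretches, 39.4% recur in other genes, mainly processed copies, and the counts on the leading copy, Gm15459, came to 0.713% of those on Hspa8.

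Per kb of transcript, Hspa8 made up nearly all of the sum of the HSP70 members Hspa8, Hspa1b and Hspa1a. Other HSP70 genes, such as Hspa2 and Hspa14, were not in that sum. The sum of Hspa8, Hspa1b and Hspa1a was 432 and 425 CPM per kb in untreated Melan-A and 386 and 384 with SX-682, 579 and 575 in untreated B16F0 and 355 and 358 with SX-682, and 617 and 616 in untreated B16F10 and 352 and 356 with SX-682. Hspa1b was 0.736 to 0.830% of that sum in untreated Melan-A, 0.593 to 0.595% in B16F0 and 0.379 to 0.398% in B16F10. With SX-682 its share was 3.44 to 3.96%, 2.12 to 2.42% and 5.89 to 6.16%. The sum therefore fell in every line while the inducible share rose, and neither the sums nor the shares of treated and untreated libraries overlapped within a line. These sums and shares carry no test of their own, and the Hspa1b share carries the uncertainty of the counts of its pair. Both also carry that of the reads that Hspa8 shares with other genes, which the counting may have dropped. Over the lines, the sum ranged from 425 to 617 CPM per kb in the untreated libraries and from 352 to 386 in the treated ones.

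**Figure D3:**
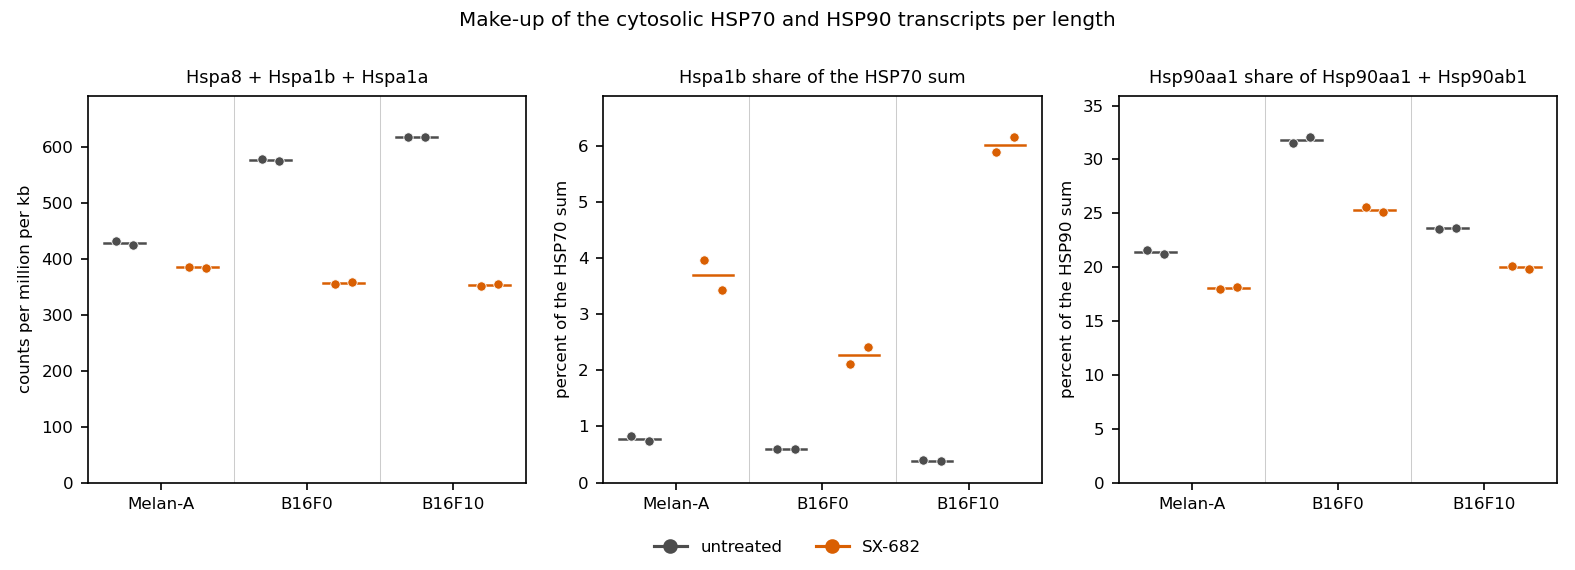
Left, the sum of Hspa8, Hspa1b and Hspa1a in CPM per kb of exonic length, middle, the percent of that sum that is Hspa1b, and right, the percent of Hsp90aa1 plus Hsp90ab1, per kb, that is Hsp90aa1, in each library (points) with group means (lines). In every line the HSP70 sum and the Hsp90aa1 share are lower, and the Hspa1b share is higher, in both SX-682 libraries.

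Hsph1 (ENSMUSG00000029657, chr5:149614287-149636376), an HSP110 that exchanges the nucleotide of HSP70 and helps dissolve aggregates, fell in all 3 lines. In Melan-A it was at 124 and 119.9 CPM untreated and at 88.0 and 88.7 CPM with SX-682. In B16F0 it was at 209.7 and 210.3 CPM, and then at 109 and 108 CPM. In B16F10 it was at 196 and 201 CPM, and then at 102 CPM in both libraries. Treated and control libraries were apart in each line, and the treated B16 levels lay between the untreated and treated levels of Melan-A. The log2 fold change was -0.47 ± 0.029 (SE) in Melan-A (adjusted p = 3.1e-14), -0.95 ± 0.029 in B16F0 (1.3e-21) and -0.96 ± 0.029 in B16F10 (7.3e-22), that is 1.38-fold, 1.93-fold and 1.95-fold lower. None of its 50-base stretches occurs in another gene.

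Dnajb1 (ENSMUSG00000005483, chr8:83608193-83612653), the HSP40 that delivers clients to HSP70 and stimulates its ATPase, was the member called in opposite directions. Melan-A had 77.8 and 78.4 CPM untreated and 87.0 and 84.9 CPM with SX-682. B16F0 had 96.1 and 95.4 CPM untreated, against 63.5 and 65.2 CPM treated. B16F10 had 89.6 and 89.0 CPM untreated and 88.7 and 90.9 CPM treated. The treated libraries lay above the controls in Melan-A, below them in B16F0, and around them in B16F10. Dnajb1 rose 1.10-fold in Melan-A (log2 0.14 ± 0.032 SE, adjusted p = 0.00058) and fell 1.49-fold in B16F0 (-0.58 ± 0.034, 6.5e-15), and its value in B16F10 was 0.01 ± 0.033 (adjusted p = 0.91).

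Bag3 (ENSMUSG00000030847, chr7:128523616-128546981), which exchanges the nucleotide of HSP70 and links it to selective autophagy, moved little. It was at 69.5 and 75.9 CPM in untreated Melan-A and 77.5 and 78.1 CPM with SX-682, at 48.1 and 52.5 CPM in untreated B16F0 and 45.2 and 48.8 CPM with SX-682, and at 70.7 and 68.2 CPM in untreated B16F10 and 64.3 and 59.7 CPM with SX-682. The groups overlapped in B16F0 and were apart in Melan-A and B16F10. The fall in B16F10 passed (log2 -0.16 ± 0.048 SE, adjusted p = 0.0049), but not without control replicate 1 (0.067) or SX-682 replicate 2 (0.13). The log2 values in Melan-A, 0.10 ± 0.045 (adjusted p = 0.079), and B16F0, -0.10 ± 0.050 (0.099), did not pass. The Melan-A value passed with a replicate block (0.032) and without control replicate 2 (0.0068), and the B16F0 value without control replicate 1 (0.026) or SX-682 replicate 2 (0.03).

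The HSP90 pair divided by isoform. Hsp90aa1 (ENSMUSG00000021270, chr12:110690605-110702728), the stress-responsive HSP90α, was at 985 and 931 CPM in untreated Melan-A and 810.4 and 815 CPM with SX-682, at 2596 and 2646 CPM in untreated B16F0 and 1995 and 1996 CPM with SX-682, and at 1495 and 1529 CPM in untreated B16F10 and 1225 and 1211 CPM with SX-682. Every treated library was below every control of its line, and the order B16F0 over B16F10 over Melan-A was the same with and without SX-682. The fall was 1.18-fold in Melan-A (log2 -0.24 ± 0.021 SE, adjusted p = 8.4e-11), 1.31-fold in B16F0 (-0.39 ± 0.021, 8.2e-16) and 1.24-fold in B16F10 (-0.31 ± 0.021, 1.4e-13). Hsp90ab1 (ENSMUSG00000023944, chr17:45567775-45573271), the constitutive HSP90β, was at 2723 and 2634 CPM in untreated Melan-A and 2819 and 2806 CPM with SX-682, at 4303 and 4279 CPM in untreated B16F0 and 4434 and 4546 CPM with SX-682, and at 3702 and 3764 CPM in untreated B16F10 and 3712 and 3729 CPM with SX-682. The treated libraries were just above the controls in Melan-A and B16F0 and within their range in B16F10. Its log2 fold change was 0.07 ± 0.017 in Melan-A (adjusted p = 0.00085), 0.07 ± 0.017 in B16F0 (0.0017) and -0.00 ± 0.017 in B16F10 (0.87), so the called rises were 1.05-fold at most. The Hsp90aa1 share of the pair, per kb, went from 21.2 to 21.6% untreated to 18.0 to 18.1% with SX-682 in Melan-A, from 31.5 to 32.1% down to 25.1 to 25.6% in B16F0, and from 23.6 to 23.7% down to 19.9 to 20.1% in B16F10. Of the 50-base stretches of Hsp90aa1, 47.5% recur in other genes, and the leading one, Gm12346, had counts equal to 0.598% of those on Hsp90aa1. Of those of Hsp90ab1, 3.44% recur. Reads of such stretches may have been divided or dropped in the counting, so the Hsp90aa1 share is uncertain. The counts on Gm12346 do not show how many reads were dropped.

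Hspb1 (ENSMUSG00000004951, chr5:135887919-135889563), the small heat shock protein HSP25, which holds unfolded clients without ATP and binds actin, differed most between the lines. Melan-A had 0 and 2 counts untreated and 3 and 8 counts with SX-682, of which only replicate 2 with SX-682 was over the floor. B16F0 had 44.4 and 43.8 CPM untreated and 68.1 and 75.0 CPM with SX-682. B16F10 had 4.40 and 4.68 CPM untreated and 12.9 and 14.0 CPM with SX-682. Treated libraries were above the controls in each line, and each B16F10 library was below each B16F0 library. The rise was 1.62-fold in B16F0 (log2 0.69 ± 0.060 SE, adjusted p = 5e-11) and 2.96-fold in B16F10 (1.56 ± 0.091, 4.7e-15). In Melan-A the ratio of scaled counts was 6.66 (95% exact interval 1.45 to 61.8), with an adjusted p of 0.025 that became 0.19 without control replicate 1, 0.31 without SX-682 replicate 2 and 0.058 with limma-voom, so the statement that Hspb1 rose in all 3 lines rests there on 11 counts against 2. Of its 50-base stretches, 50.1% recur in Hsp25-ps1 or Gm9817, and Hsp25-ps1 held counts equal to 0.308% of those on Hspb1.

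Whether the change with SX-682 differed between lines was tested as a difference of the changes. Between B16F0 and Melan-A, 8 of the 10 members differed, against 34.4% of all genes tested, with the B16F0 change the lower for 7 of the 8. Between B16F10 and Melan-A, 6 differed, against 33.8%, and the B16F10 change was the lower for 5. Between B16F10 and B16F0, 6 differed, against 30.3%, and the B16F10 change was the higher for 4. With library totals alone as scaling, the members with a higher and a lower change were 0 and 7 for B16F0 against Melan-A, in place of 1 and 7, 4 and 1 for B16F10 against B16F0, in place of 4 and 2, and 1 and 6 for B16F10 against Melan-A, in place of 1 and 5. RLE scaling gave 1 and 6 there as well, since Hsp90aa1 (log2 -0.07 ± 0.030 SE, adjusted p = 0.054) gained the call (-0.09, 0.022). The share of all genes called was larger among genes with more counts. In a fit of the 12326 genes with at least 10 counts throughout, 3152 were higher and 3029 lower for B16F0 against Melan-A. Those for B16F10 were 3023 and 3096 against Melan-A, and 2615 and 2932 against B16F0. Hspa1a and Hspb1 were not in that fit. The 3 differences share libraries and are not independent.

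The fall of Hspa8 and Hsph1 was larger in both B16 lines than in Melan-A. For Hspa8 the difference from Melan-A was -0.52 ± 0.023 (SE, log2) in B16F0 (adjusted p = 6.9e-17) and -0.69 ± 0.023 in B16F10 (9.1e-20). For Hsph1 it was -0.48 ± 0.041 in B16F0 (8.4e-11) and -0.50 ± 0.041 in B16F10 (4.6e-11), while the B16 lines differed from each other by -0.01 ± 0.041 (adjusted p = 0.9). Hspa1b followed another order, since its rise was smaller in B16F0 than in Melan-A, by -0.85 ± 0.11 (4e-07), and larger in B16F10 than in Melan-A, by 1.07 ± 0.11 (8.1e-09). Dnajb1 set B16F0 apart, with a difference of -0.71 ± 0.046 from Melan-A (3e-13) and of 0.58 ± 0.047 between B16F10 and B16F0 (5.6e-11). The rise of Hspb1 was larger in B16F10 than in B16F0 by 0.87 ± 0.11 (3.3e-07).

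Untreated, the lines were ordered differently for different members. B16F0 was higher than Melan-A for 6 members and lower for 1, with 75.9% of all genes tested called in that comparison. B16F10 was higher than Melan-A for 7 and lower for 1 (all genes, 74.2%), and higher than B16F0 for 2 and lower for 6 (all genes, 62.0%), so most members differed between lines, as most genes did. The scaling matters here. The median log2 difference of all genes between untreated B16F10 and Melan-A was -0.10 with TMM and -0.29 with library totals alone, under which the members were 5 higher and 3 lower, and those between B16F10 and B16F0 were 1 higher and 6 lower.

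Hsp90aa1 had the largest difference of the abundant members. Untreated B16F0 was 2.74-fold over Melan-A (log2 1.45 ± 0.021 SE, adjusted p = 1e-30) and B16F10 was 1.58-fold over it (0.66 ± 0.021, 4.2e-22), and B16F10 was 1.73-fold below B16F0 (-0.79 ± 0.021, 1.1e-23). Hsp90ab1 had the same order, with B16F0 1.60-fold and B16F10 1.39-fold over Melan-A. Hspa8 had B16F10 on top, 1.44-fold over Melan-A, with B16F0 at 1.35-fold, and B16F10 over B16F0 by only 1.07-fold (log2 0.10 ± 0.017, adjusted p = 4.9e-06), a step that was not called with library totals alone (0.01, 0.77). Hsph1 was 1.72-fold over Melan-A in B16F0 and 1.63-fold in B16F10. The B16 lines differed in Hsph1 by -0.08 ± 0.028 (adjusted p = 0.012), which was not called when B16F10 control replicate 1 (0.17) or either B16F0 control (0.069 and 0.071) was left out.

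For the low or level members the order was less settled. Untreated Hspa1b was 1.40-fold lower in B16F10 than in Melan-A and 1.43-fold lower than in B16F0, while B16F0 and Melan-A did not differ beyond their spread (log2 0.03 ± 0.086, adjusted p = 0.76). Bag3 was 1.45-fold lower in B16F0 than in Melan-A and 1.38-fold higher in B16F10 than in B16F0, and the log2 difference between B16F10 and Melan-A was -0.07 ± 0.046 (adjusted p = 0.2). That value passed with library totals alone (-0.25, 2e-05), with at least 10 counts in every library (-0.13, 0.011) and without Melan-A control replicate 1 (-0.12, 0.031). Dnajb1 was 1.23-fold higher in B16F0 and 1.14-fold higher in B16F10 than in Melan-A, the second of which was at 0.01 (adjusted p = 0.84) with library totals alone. Hsf1 differed by 0.09 ± 0.039 between B16F10 and Melan-A (adjusted p = 0.037), a value that turned to -0.10 with library totals alone. Its call was also lost with RLE scaling (0.17), DESeq2 (0.24), at least 10 counts in every library (0.55), crossed Melan-A pairs (0.27), and without Melan-A control replicate 1 (0.11) or either B16F10 control (0.062 and 0.1). Hspb1 showed the widest range, with a ratio of scaled counts to Melan-A of 3911 in B16F0 (95% exact interval 1082 to 32300) and 402 in B16F10 (111 to 3331) against 2 counts in Melan-A, and 9.71-fold lower in B16F10 than in B16F0 (log2 -3.28 ± 0.081 SE, adjusted p = 1.6e-24).

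Compared per kb, Hsp90ab1 was the highest member in all 6 groups, with group means of 893 to 1497 CPM per kb. Hspa8 was next in Melan-A and B16F10 and Hsp90aa1 in B16F0, with and without SX-682. Hsp90ab1, Hsp90aa1 and Hspa8 held 93.6 to 95.5% of the members' counts in every library. The 10 members together held 0.610 to 0.627% of all counts in untreated Melan-A and 0.600 to 0.601% with SX-682, 0.982 to 0.985% in untreated B16F0 and 0.822 to 0.831% with SX-682, and 0.775 to 0.782% in untreated B16F10 and 0.637 to 0.642% with SX-682. Hspa1b moved from rank 8 or 9 per kb in the untreated groups to rank 6 with SX-682 in Melan-A and B16F10, above Hsph1, and stayed at rank 9 in B16F0. Levels and ranks between genes are uncertain here, since the members differ in the stretches they share with other genes. Reads of those stretches may have been dropped in the counting.

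Of 57 other genes of the cytosolic chaperone system and their family relatives, in 5 lists, 55 were tested, and more fell than rose with SX-682. Not every product of these lists is a cytosolic chaperone. In Melan-A 10 rose and 27 fell, in B16F0 9 rose and 24 fell, and in B16F10 14 rose and 23 fell, which can be read against the 23.4 to 25.5% of all genes called in each direction in a line. Those shares were larger among genes with more counts, as given above for the members. Across all 3 lines, 13 of the 55 were lowered and 3 were raised, beside 11.7% and 11.3% of all genes. Their median log2 fold change was -0.09 in Melan-A and B16F0 and -0.03 in B16F10, beside 0.00 for all genes tested. The changes were mostly small, with 8, 6 and 13 of the 55 called past a log2 fold change of 0.5 in size in Melan-A, B16F0 and B16F10, beside 16.3%, 19.4% and 21.5% of all genes. The counts of the single lists below can be read against the same shares of all genes.

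Most HSP90 co-chaperones that were called fell with SX-682. Of 14, 8 fell and 0 rose in Melan-A, 10 fell and 1 rose in B16F0, and 9 fell and 2 rose in B16F10, and 6 (Ahsa1, Ahsa2, Chordc1, Fkbp4, Ppid and Ptges3) fell in all 3. Chordc1, a co-chaperone of HSP90, had log2 fold changes of -0.53 ± 0.042 (SE), -0.74 ± 0.043 and -0.89 ± 0.041 in Melan-A, B16F0 and B16F10. Fkbp4, the immunophilin of steroid receptor complexes, had -0.24 ± 0.020, -0.39 ± 0.020 and -0.46 ± 0.020. Ptges3, the p23 protein that closes the HSP90 cycle, had -0.23 ± 0.027, -0.15 ± 0.027 and -0.23 ± 0.027, and Ppid, cyclophilin 40, had -0.21 ± 0.041, -0.45 ± 0.038 and -0.59 ± 0.041. Cdc37, which brings kinases to HSP90, was between 0.02 and 0.06 in the 3 lines and was not called in any.

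Dnaja1, a type I HSP40 of the cytosol, fell in all 3 lines. Of the 19 J-domain and HSP70 relatives, 10 fell and 4 rose in Melan-A, 10 fell and 2 rose in B16F0, and 8 fell and 3 rose in B16F10. Dnaja1 went from 27727 and 27151 counts to 12017 and 12921 in Melan-A, from 20786 and 19472 to 9075 and 6529 in B16F0, and from 22860 and 25121 to 10951 and 10615 in B16F10. On the log2 scale these were falls by 0.86 ± 0.030 (SE), 1.05 ± 0.031 and 1.09 ± 0.031. Dnaja2, its close relative, had log2 fold changes of -0.25 ± 0.025, -0.43 ± 0.025 and -0.50 ± 0.025, and Hspa4, an HSP110, had -0.27 ± 0.023, -0.17 ± 0.023 and -0.40 ± 0.024. Hspa2, an HSP70 best known from the testis, fell in B16F0 (-1.10 ± 0.085) and B16F10 (-0.37 ± 0.087) and was at -0.12 ± 0.070 in Melan-A, which did not pass. Hspa12b fell in Melan-A (-0.86 ± 0.19) and B16F10 (-1.02 ± 0.15) and was at -0.23 ± 0.12 in B16F0, which did not pass.

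Among 9 genes of nucleotide exchange and handover, 6 fell and 1 rose in Melan-A, 3 fell and 1 rose in B16F0, and 4 fell and 2 rose in B16F10. Bag2, which exchanges nucleotide on HSP70 and restrains the ligase Stub1, had log2 fold changes of -0.33 ± 0.047 (SE), -0.62 ± 0.055 and -0.91 ± 0.059 in Melan-A, B16F0 and B16F10. Stip1, which joins HSP70 to HSP90, had -0.29 ± 0.023, -0.23 ± 0.023 and -0.34 ± 0.023. St13 was lower in Melan-A (-0.08 ± 0.022) and B16F10 (-0.14 ± 0.023) and at -0.04 ± 0.023 in B16F0, not called. Hspbp1 fell in B16F0 (-0.26 ± 0.055) and B16F10 (-0.51 ± 0.049) and was at 0.06 ± 0.049 in Melan-A, not called. Bag6 was called in opposite directions, at -0.07 ± 0.026 in Melan-A and 0.12 ± 0.026 in B16F0, and was at 0.04 ± 0.026 in B16F10, not called.

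The small heat shock proteins and the heat shock factors held the 3 genes that rose in every line, Hspb2, Hspb11 and Hsf2. Of the 8 small heat shock proteins tested, 3 rose and 2 fell in Melan-A, 4 rose and 0 fell in B16F0, and 4 rose and 2 fell in B16F10. Hspb11, known as a part of the intraflagellar transport machinery despite its name, had log2 fold changes of 0.51 ± 0.080 (SE), 0.41 ± 0.082 and 1.21 ± 0.083. Cryab, αB-crystallin, the most abundant of the list, fell in Melan-A (-0.14 ± 0.026) and B16F10 (-0.47 ± 0.026) and was at 0.04 ± 0.026 in B16F0, not called. Hspb8, a partner of Bag3, rose in Melan-A (0.13 ± 0.035) and B16F0 (0.23 ± 0.074) and fell in B16F10 (-0.14 ± 0.036), and Hspb6 fell in Melan-A (-0.18 ± 0.051) and rose in B16F0 (0.32 ± 0.066) and B16F10 (0.39 ± 0.066). Hspb9 passed in B16F10 on 4 and 1 counts against 6 and 16. Of the 5 heat shock factors and binding proteins tested, 2 rose and 1 fell in Melan-A, 1 rose and 1 fell in B16F0, and 3 rose and 0 fell in B16F10. Hsf2, which can form mixed complexes with heat shock factor 1, had log2 fold changes of 0.16 ± 0.051, 0.23 ± 0.052 and 0.53 ± 0.054. Hsf4, the factor needed in the lens, rose in Melan-A (0.19 ± 0.047) and B16F10 (0.33 ± 0.063) and was at 0.11 ± 0.053 in B16F0, not called. Hsbp1, which binds heat shock factor 1, fell in Melan-A (-0.25 ± 0.034) and was at -0.08 ± 0.034 and -0.00 ± 0.034 in B16F0 and B16F10, not called. Hikeshi, the importer that carries HSP70 into the nucleus, rose in B16F10 (0.19 ± 0.044), with 0.02 ± 0.043 in Melan-A and -0.09 ± 0.048 in B16F0, not called. Hsf5 passed in B16F0 on 7 and 5 counts untreated against 0 and 0 with SX-682, and no fold is given.

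**Figure D4:**
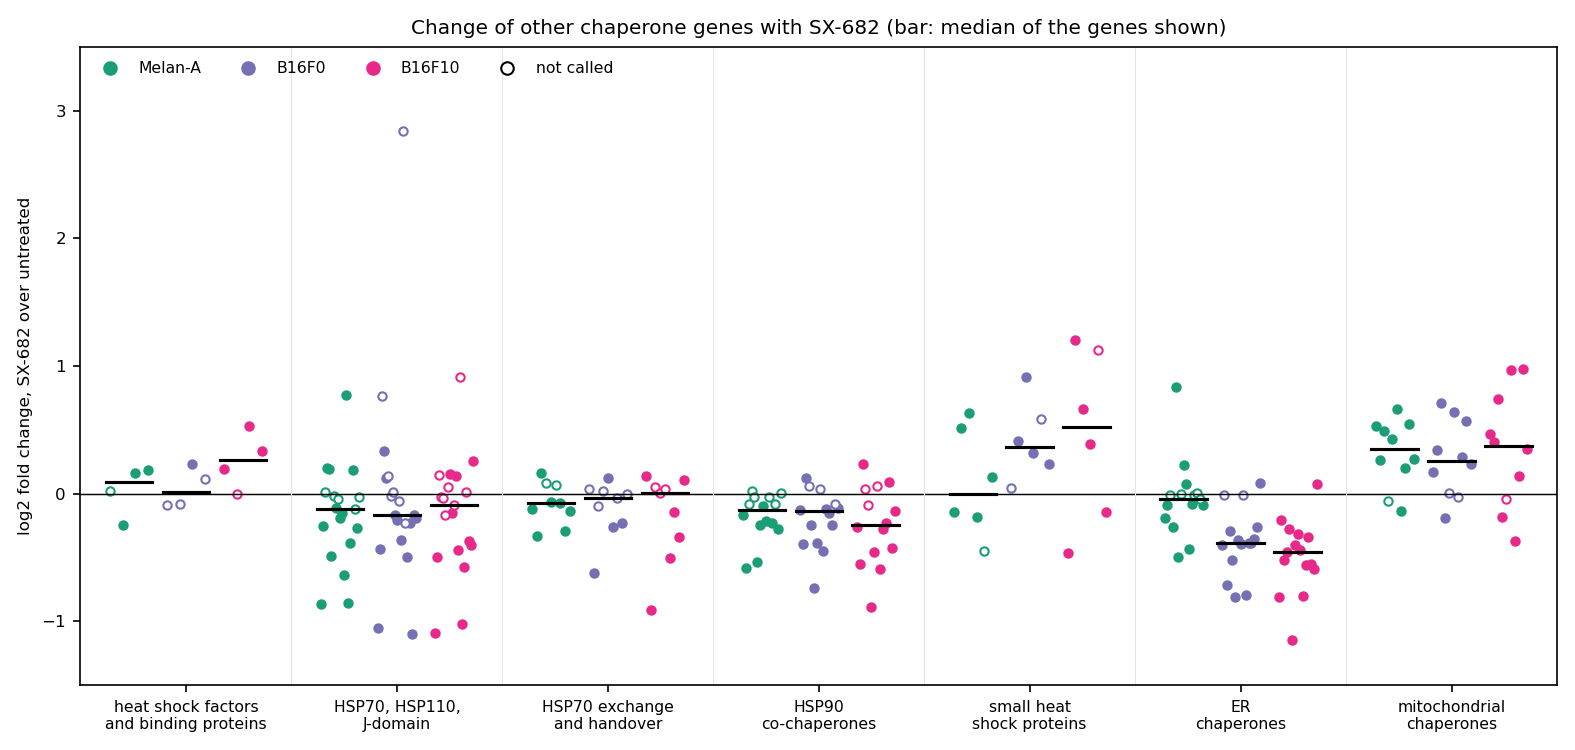
Log2 fold change of SX-682 over untreated (y axis) for 77 of the 80 listed genes tested, those that reach 1 CPM in some library, by list (x axis) and line (colour), filled where the adjusted p was under 0.05, with black bars for medians. The HSP90 co-chaperone medians lie below 0 and the mitochondrial chaperone medians above 0 in all 3 lines, and the ER chaperone medians of the B16 lines lie further below 0 than that of Melan-A.

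Chaperones of other compartments were counted beside them, also to be read against the 23.4 to 25.5% of all genes called in each direction in a line. Of 15 ER chaperones, 7 fell and 3 rose in Melan-A, 12 fell and 1 rose in B16F0, and 14 fell and 1 rose in B16F10, with medians of -0.04, -0.39 and -0.45 (log2). Hspa5, the ER HSP70 BiP, rose in Melan-A (0.22 ± 0.018 SE) and fell in B16F0 (-0.39 ± 0.018) and B16F10 (-0.31 ± 0.018), and Dnajb9, its J-domain partner, likewise rose in Melan-A (0.84 ± 0.047) and fell in both B16 lines (-0.52 ± 0.051 and -0.28 ± 0.051). Dnajc3, an ER J-domain protein, had -0.49 ± 0.032, -0.81 ± 0.031 and -1.15 ± 0.032. The lectin chaperone Calr had -0.19 ± 0.018, -0.40 ± 0.018 and -0.81 ± 0.018, and Canx was at -0.09 ± 0.025, -0.01 ± 0.025 and -0.20 ± 0.025, not called in B16F0. Of 10 mitochondrial chaperones and proteases, 8 rose and 1 fell in Melan-A, 7 rose and 1 fell in B16F0, and 7 rose and 2 fell in B16F10, with medians of 0.35, 0.26 and 0.37. Lonp1, the matrix protease, had 0.54 ± 0.024, 0.57 ± 0.023 and 0.98 ± 0.023, Dnaja3 had 0.49 ± 0.034, 0.71 ± 0.034 and 0.74 ± 0.034, and Hscb, of iron-sulfur cluster assembly, had 0.66 ± 0.067, 0.64 ± 0.071 and 0.97 ± 0.069. The chaperonin pair was divided, since Hspe1 rose in each line (0.20 ± 0.029, 0.29 ± 0.029 and 0.14 ± 0.029) and Hspd1 fell in Melan-A (-0.13 ± 0.020) and B16F10 (-0.37 ± 0.020) and was at -0.03 ± 0.020 in B16F0, not called.

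Likeness of pattern over the 12 libraries was measured as Pearson's r of log2 CPM among 9353 genes with a mean log2 CPM of at least 3, as a description, since the libraries fall into 6 groups that many genes share. The genes most like Hspa8 were Ppif (0.992), Tnpo3 (0.978) and Dpm2 (0.976). Those most like Dnajb1 were Homez (0.936), Ogt (0.898) and Cbx8 (0.896).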

How the data were processed

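The authors deposited raw read counts per gene for 34513 genes in 12 libraries of cultured cells. The submitters' processing notes name cutadapt, STAR and DESeq2 and the build mm10. The counting program and its handling of strand and of reads that match several genes are not given in the sources used here, so reads of paralogs and overlapping genes may be divided or lost. Columns were matched to libraries by name, and groups come from the sample labels.

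Changes were tested with edgeR's quasi-likelihood test (edgeR 4.0.16 in R 4.3.3) in 1 fit of the 6 groups with no block. Libraries were scaled by TMM, low genes were removed with filterByExpr (18338 kept), the prior count was 0.125, and p-values were adjusted over all genes kept by the Benjamini-Hochberg method at a threshold of 0.05. SEs come from the F statistic, with 6 residual and 21.9 prior degrees of freedom. Levels are CPM on the scaled totals and, between genes, CPM per kb of exonic length. Totals were 48876982 to 85322092 counts. Intervals and the floor of 3 counts cover counting error only. Replicates differed beyond sampling noise (2.87 to 5.25 chi-square units a gene).

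The members and lists were chosen with earlier results of these data known. All members are named, and from each list the 3 genes of highest mean log2 CPM and, of the rest, the 2 with the largest called change. Genes raised or lowered in all 3 lines are named beyond this rule where their count is given. The fits were also run on simulated counts, with a common baseline, a common spread and the same SX-682 changes in every line. That run does not cover differences between lines or changes of genes with few counts in all libraries. Alternatives were DESeq2 1.42.0, limma-voom (limma 3.58.1), RLE scaling, totals alone, no filter, a minimum of 10 counts throughout, separate fits by line, a replicate block, a prior count of 2, other thresholds, Hspa1a and Hspa1b added, and each library left out in turn. Leaving out the 50 highest genes or the Melan-A libraries, and a crossed pairing, were chosen after seeing the data. The labels give a line's groups the same replicate numbers, but same-numbered libraries did not deviate together (r of -0.106, -0.0325 and -0.0381 in Melan-A, B16F0 and B16F10 over 9891 genes).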

Additional observations from a re-analysis of the deposited data

Results flagged for a closer look

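These differences between lines in the change with SX-682 passed the test of the difference itself (edgeR's quasi-likelihood test, adjusted p under 0.05), and are given as values on the log2 scale. The change in B16F0 minus that in Melan-A was -0.71 for Dnajb1, -0.52 for Hspa8, -0.16 for Hsp90aa1, 0.16 for Hsf1, -0.48 for Hsph1, -0.20 for Bag3, -0.85 for Hspa1b and -4.85 for Hspa1a. The Hspa1a value rests on 1 to 22 counts a library and did not pass when Melan-A control replicate 2, Melan-A SX-682 replicate 1, B16F0 control replicate 1 or B16F0 SX-682 replicate 1 was left out. The Hsf1 difference did not pass with library totals alone (adjusted p = 0.078), with no filter (0.059) or without Melan-A control replicate 2 (0.081), Melan-A SX-682 replicate 1 (0.24), B16F0 control replicate 2 (0.22) or either B16F0 SX-682 library (0.06 and 0.063), and that of Bag3 did not pass with DESeq2 (0.054) or without Melan-A control replicate 1 (0.12), B16F0 control replicate 2 (0.17) or B16F0 SX-682 replicate 1 (0.13). The change in B16F10 minus that in Melan-A was -0.13 for Dnajb1, -0.69 for Hspa8, -0.08 for Hsp90ab1, -0.50 for Hsph1, -0.26 for Bag3 and 1.07 for Hspa1b. The Dnajb1 difference did not pass without Melan-A SX-682 replicate 1 (0.082), B16F10 control replicate 1 (0.055) or B16F10 SX-682 replicate 1 (0.063), nor that of Hsp90ab1 without Melan-A control replicate 2 (0.051). The change in B16F10 minus that in B16F0 was 0.87 for Hspb1, 0.58 for Dnajb1, -0.17 for Hspa8, 0.08 for Hsp90aa1, -0.07 for Hsp90ab1 and 1.92 for Hspa1b. The Hsp90aa1 difference did not pass with RLE scaling (0.15), DESeq2 (0.13), at least 10 counts in every library (0.088), without the Melan-A libraries (0.05), or without B16F0 control replicate 2 (0.15), B16F0 SX-682 replicate 1 (0.05), B16F10 control replicate 1 (0.17) or B16F10 SX-682 replicate 1 (0.18). That of Hsp90ab1 did not pass with library totals alone (0.2) or without B16F0 control replicate 2 (0.062), B16F0 SX-682 replicate 2 (0.051) or B16F10 control replicate 2 (0.067). Groups of 2 libraries are too small for a check of single outlying libraries.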

How the results depend on the processing

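Hspa1b, Hspa8, Hsph1 and Hsp90aa1 kept the direction and the call of their SX-682 changes in all 3 lines under every alternative in scaling, filter, tool, block and left-out library, and Hspb1 did so in the B16 lines. A limit of 0.5 on the size of the log2 fold change lowered most counts: 3 and 5 members were called in Melan-A and B16F0, 8, 6 and 13 related genes in Melan-A, B16F0 and B16F10, 4, 2 and 3 members for B16F0 against Melan-A, B16F10 against Melan-A and B16F10 against B16F0 in the difference of the changes, and 4 and 3 members for untreated B16F10 against Melan-A and against B16F0. At an adjusted p under 0.01, 5 members differed in their change between B16F0 and Melan-A, and leaving out single libraries gave 5 to 8 there, the 5 without B16F0 SX-682 replicate 1. The untreated Hsf1 difference between B16F10 and Melan-A reversed to -0.0958 with library totals alone; the cause was not tested. With the replicate block the members called in the SX-682 comparison were 9, 8 and 6 in Melan-A, B16F0 and B16F10, against 8, 8 and 6, since Bag3 in Melan-A gained a call, and it ended no member's call. Crossing the pairs of the Melan-A libraries gave 9, 8 and 6 as well. Few counts limit what can be said of Hspa1a in each line and of Hspb1 in Melan-A.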
